A study of Homo sapiens with 6 samples.

Results

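The genes described here lie on the long arm of chromosome 8, in the bands 8q23 to 8q24, with a start between 108.0 and 124.9 Mb of GRCh38. They are the genes of this interval with a mean of at least 10 normalised counts over the 6 libraries, apart from HAS2, COL14A1 and MRPL13, which the rule leaves out by name. The table of normalised counts holds 93 genes of the interval, and 37 of them met the rule, out of 14684 genes in the table that reached the same mean. Of the remaining genes, 36 were at 0 in every library and 17 had a mean above 0 and under 10. All 37 members are protein-coding genes, which reflects the table, where the genes of the interval are 53 protein-coding genes and 40 pseudogenes. The limits of the interval were set with the difference between the lines in view. That difference is therefore given for the members as a description, and no test is read from it.

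ARPE-19 is an established cell line of human retinal pigment epithelium (RPE). WT was the parental line. The POLDIP2 KO line came from these cells by lentiviral delivery of SpCas9 together with a single guide RNA against the coding sequence of POLDIP2. Cells were selected with puromycin and expanded, and no step of picking single clones is described. From each line, 3 biological replicates kept under regular maintenance and labelled day 3 gave polyadenylated RNA for sequencing, so there are 6 libraries in 2 groups, and the guide, the vector and the selection are shared by the POLDIP2 KO libraries alone. All POLDIP2 KO replicates come from 1 knockout line, and the genotype cannot be told apart from other differences between the lines.

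Neighbouring genes on a chromosome need not share a function, and those of 8q23 to 8q24 do not form a pathway. Most of the members serve basic processes of every cell: EIF3E and EIF3H are subunits of the translation initiation factor eIF3, RAD21 is the cleavable subunit of the cohesin ring, and EXT1 builds heparan sulfate chains in the Golgi. A deletion that takes TRPS1, RAD21 and EXT1 together causes Langer-Giedion syndrome, a disorder of bone and hair. What the members share is their place, so their values were read in the order in which the genes lie on the chromosome.

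Libraries held 31532797 to 45795509 recovered reads, and the members together took 0.268% to 0.337% of them. The targeted gene followed the labels: POLDIP2 had 3919, 4827 and 4798 normalised counts in WT and 1063, 1248 and 1143 in POLDIP2 KO. Here and below, values of single libraries stand in the order of their replicate numbers. Of 16 RPE markers, 12 reached a mean of 10, while RPE65, TYR and TTR had 3 reads or fewer in every library, so the labelled cell type rests on the other markers. The summed RPE markers ranged from 76284 to 92339 normalised counts in WT and from 72635 to 100311 in POLDIP2 KO. The listed RPE markers include the keratins KRT8 and KRT18, and the sum does not show which markers carry it. The fibroblast markers ranged from 357 to 2178 in WT and from 806 to 7732 in POLDIP2 KO, and their part in the results below was not tested. In bulk RNA, a change in the RNA per cell and a change in the share of cells that express a gene cannot be told apart.

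Along the interval, the members split into a centromeric stretch near no difference and a telomeric stretch that was higher in POLDIP2 KO. The lines were set against each other by limma, on log2(normalised count + 1), which understates the change of low genes, and a log2 fold change above 0 means a higher level in POLDIP2 KO. With the members cut by order into 4 blocks of 10, 9, 9 and 9 genes, the median log2 fold change was -0.021 in the first block, -0.060 in the second, 0.43 in the third and 0.53 in the fourth. All 9 genes of the third block and all 9 of the fourth were higher in POLDIP2 KO, against 5 of 10 in the first and 3 of 9 in the second. Over all 37 members the median was 0.26 and 26 were higher, which is 70.3%, while 49.9% of all 14684 genes tested were. Without WT replicate 1 the median of the members was 0.13.

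The higher stretch is an unbroken run of 18 members that starts at DSCC1 (119833976 to 119855894) and ends at NDUFB9 (124539101 to 124580648), the last member. It is unbroken among the members only, since genes outside the rule, HAS2, COL14A1 and MRPL13 among them, were not read for it. The run was seen in the data and has no test. Its gene starts span 4.71 Mb. Over its 18 genes the median log2 fold change was 0.44, with a range from 0.041 in ZHX2 to 0.73 in TMEM65. On the linear scale the POLDIP2 KO mean was 1.03 to 1.65 times the WT mean, with a median of 1.36. The 19 members before the run, from EIF3E (108162787 to 108443496) to TAF2 (119730774 to 119832863), had a median log2 fold change of -0.053 and a median ratio of 0.977. Of these 19, 13 lay within 0.14 of 0 on the log2 scale.

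**Figure D1:**
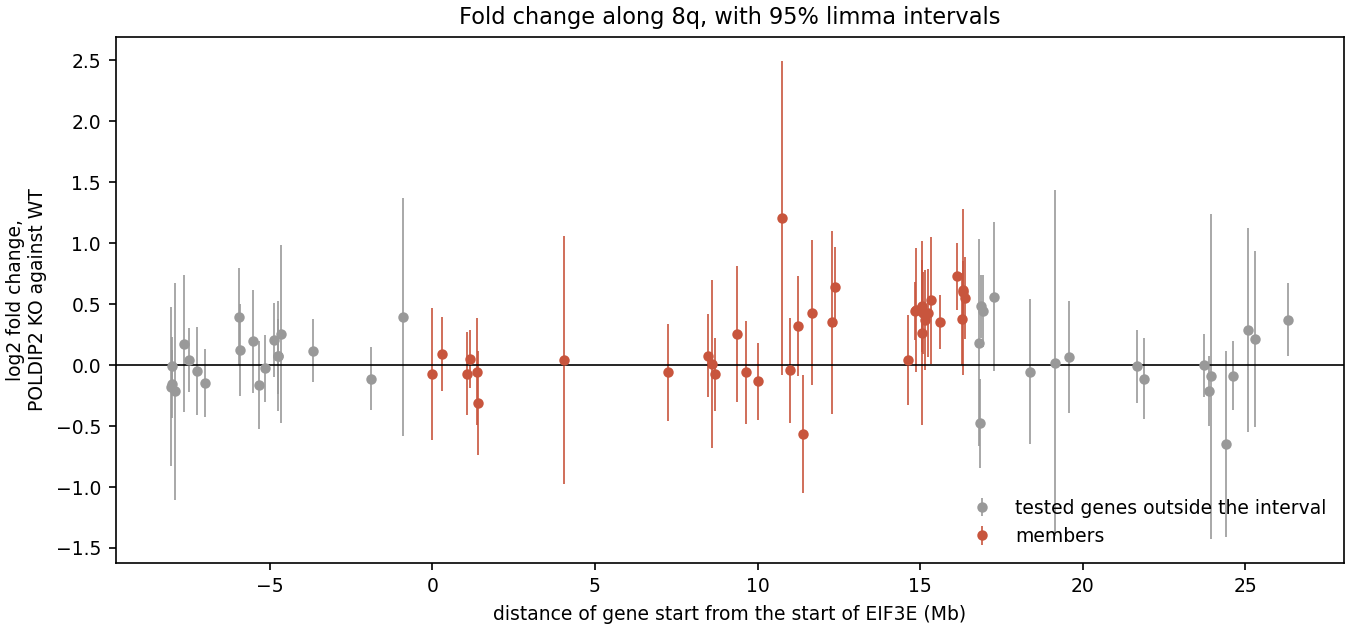
Log2 fold change of POLDIP2 KO against WT (vertical axis, with 95% limma intervals) by the distance of the gene start from that of EIF3E in Mb (horizontal axis), for 74 tested genes; red points are members and grey points other genes, and 6 genes with an interval wider than 3, TAF2 among them, are not drawn. The members lie near 0 on the left and above 0 on the right, where the run has a median of 0.44.

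By limma with Benjamini-Hochberg adjustment over all genes tested, 0 of the 37 members passed both thresholds (adjusted p under 0.05, change over 1.5 times), and 0.170% of all genes did. At an unadjusted p value under 0.05, 11 members were higher and 1 was lower, with 3.00% and 3.47% of all genes. The 3 POLDIP2 KO libraries lay above the 3 WT libraries without overlap for 12 members and below them for 1, with 5.46% and 5.44% of all genes. All 12 members without overlap in the upward direction belong to the run. On the recovered reads, the edgeR quasi-likelihood test called 0 members, against 0.116% of all genes, and 12 had an unadjusted p value under 0.05, against 6.52%. DESeq2 on these reads called SNTB1, TMEM65 and RNF139, all higher, against 1.70% of all genes. With the replicate number as a block, DESeq2 added TATDN1 to them, against 2.67%, and limma called 0 members, against 0.204%, with 13 at an unadjusted p value under 0.05, against 11.1%. Because the interval was chosen with this contrast in view, these counts are given beside their background and nothing is read from them.

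TMEM65 and RNF139 lie close to the telomeric end of the interval, and both were higher in POLDIP2 KO without overlap. TMEM65, which encodes a protein of the inner mitochondrial membrane, had 1586, 1351 and 1295 normalised counts in WT and 2429.7, 2200.4 and 2361 in POLDIP2 KO. The means were 1410.5 ± 155 and 2330.4 ± 118 (± SD, n = 3 libraries each), which gives a log2 difference of 0.73 (standard error 0.12). Every POLDIP2 KO library of TMEM65 lay above the highest WT library. RNF139 encodes TRC8, a ubiquitin ligase of the endoplasmic reticulum (ER), and had 1291, 1417 and 1292 in WT and 1940.0, 2052 and 2134 in POLDIP2 KO. Its log2 fold change was 0.61 (standard error 0.10), with a spread of 0.073 between libraries of a line on the log2 scale.

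Of the 8 members listed under ER and trafficking, 5 were higher in POLDIP2 KO, 4 of them in the run, and SYBU, EXT1 and MAL2 before it were lower, with values given below. DERL1, a channel protein of ER-associated degradation, had 2529.9, 2200.4 and 2409 normalised counts in WT and 3378, 3134 and 3190.4 in POLDIP2 KO, a log2 fold change of 0.44 (standard error 0.10). FAM91A1, a subunit of the WDR11 complex that captures vesicles at the trans-Golgi, had 3606, 3857 and 4063 in WT and 4697, 5054 and 4973 in POLDIP2 KO, a log2 fold change of 0.35 (standard error 0.095). For both genes the libraries of a line lay close together and the lines did not overlap. TBC1D31, a protein of the centriolar satellites that is counted in this list, had 422, 313 and 552 in WT and 579, 571 and 570.0 in POLDIP2 KO. Its POLDIP2 KO libraries were nearly equal and its WT libraries were spread widely, so the log2 fold change of 0.46 had an interval of -0.052 to 0.96, although the lines did not overlap.

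SNTB1 lies near the start of the run and had its second largest difference. It encodes syntrophin beta 1, an adaptor of the dystrophin complex at the plasma membrane, and had 656, 775 and 663 normalised counts in WT and 964, 1091 and 1218 in POLDIP2 KO. With means of 698 ± 66.7 and 1091 ± 127 (± SD, n = 3 libraries each), its log2 fold change was 0.64 (standard error 0.14). The lines did not overlap. DSCC1 and MTBP, the pair of members that come before SNTB1 in the run, overlapped between the lines. DSCC1, a subunit of the CTF18-RFC complex that loads the replication clamp, had 290.0, 215 and 329.9 in WT and 289, 482 and 361 in POLDIP2 KO. MTBP, which works with Treslin in the firing of replication origins, had 237, 267 and 352 in WT and 225, 489 and 420.0 in POLDIP2 KO, and in both genes POLDIP2 KO replicate 2 was the highest library.

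The transcription regulators of the run are ZHX1, ZHX2 and ATAD2. ZHX1 and ZHX2 encode related zinc finger and homeobox proteins that repress transcription. ZHX1 had 2329.6, 2505 and 2698 normalised counts in WT and 2817, 3496 and 3910.2 in POLDIP2 KO, a log2 fold change of 0.43 (standard error 0.14), without overlap. ZHX2 had 1119, 1086 and 1368 in WT and 1383, 1263 and 1036 in POLDIP2 KO, a log2 fold change of 0.041 with an interval of -0.33 to 0.41, the smallest of the run. Its lines overlapped, and POLDIP2 KO replicate 3 was the lowest of the 6 libraries. ATAD2, a chromatin ATPase with a bromodomain, had 5822, 3771 and 5338 in WT and 5864, 6758 and 6414 in POLDIP2 KO, so the lowest POLDIP2 KO library lay just above the highest WT library.

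FBXO32 was the most abundant transcript of the run by count. It encodes atrogin-1, the substrate-binding part of an SCF ubiquitin ligase, and had 16021, 11693 and 17681 normalised counts in WT and 21754, 16943 and 27211 in POLDIP2 KO. Its log2 fold change was 0.53 (standard error 0.22), and the lines overlapped because POLDIP2 KO replicate 2 lay below WT replicate 3. NTAQ1, which deamidates glutamine at the N-terminus of proteins, had 395, 438 and 389 in WT and 567, 475 and 615 in POLDIP2 KO, without overlap. TRMT12, an enzyme of wybutosine synthesis in transfer RNA, had 286, 306 and 253 in WT and 333, 399.7 and 368 in POLDIP2 KO, also without overlap. The log2 fold changes of NTAQ1 and TRMT12 were 0.43 and 0.38 (standard errors 0.15 and 0.16).

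NDUFB9 and TATDN1 close the interval and are read from opposite strands with their starts together. NDUFB9, an accessory subunit of respiratory complex I, had 2033, 2311 and 2755 normalised counts in WT and 3109, 3516 and 3733 in POLDIP2 KO, a log2 fold change of 0.55 (standard error 0.14), without overlap. TATDN1, a nuclease of the TatD family, had 521, 853 and 1001 in WT and 856, 1402 and 1287 in POLDIP2 KO, and replicate 1 was the lowest library of each line. Its log2 fold change of 0.60 had an interval of -0.085 to 1.28. The last members to account for are C8orf76 and the readthrough gene ZHX1-C8orf76, named here after their values were seen. C8orf76 had 364, 394 and 493 in WT and 573, 618 and 548 in POLDIP2 KO, a log2 fold change of 0.48, without overlap. ZHX1-C8orf76 overlaps both ZHX1 and C8orf76 on the same strand, so reads can be split between them, and its log2 fold change of 0.26 is uncertain.

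**Figure D2:**
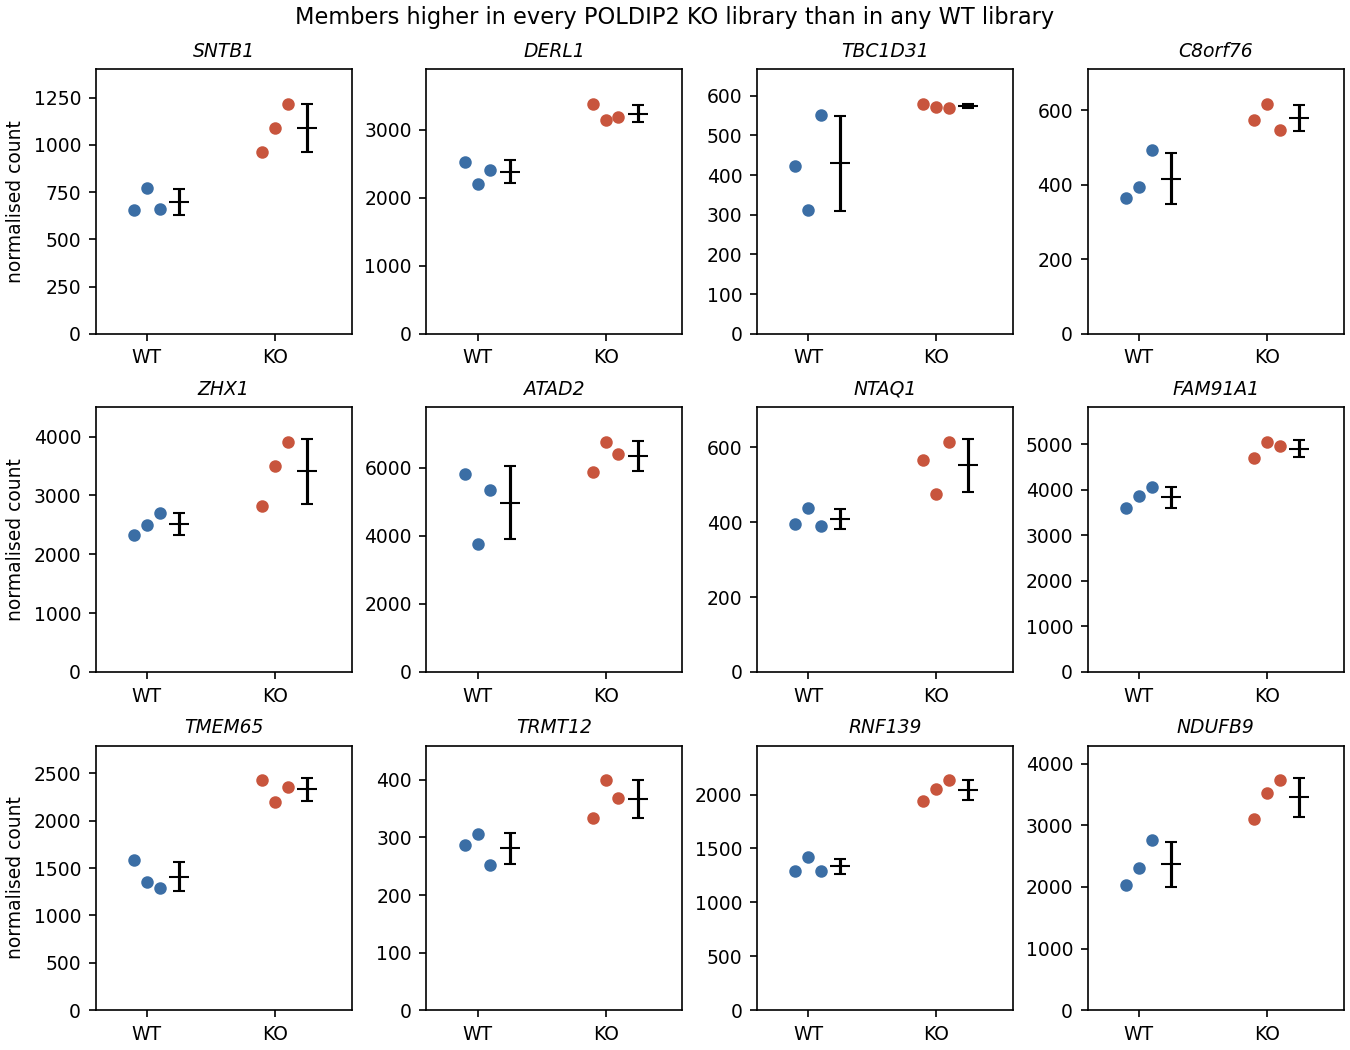
Normalised counts (vertical axes, each from 0) of the 12 members whose POLDIP2 KO libraries all lie above the WT libraries; points are the 3 libraries of a line, and the black bar is the mean ± SD. The gap between the lines is wide in TMEM65, RNF139 and DERL1 and narrow in ATAD2 and TBC1D31.

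Before the run, the members of large complexes had 95% intervals that include 0. EIF3E had 8549.5, 10666 and 8586 normalised counts in WT and 9021, 6313 and 11840.0 in POLDIP2 KO, a log2 fold change of -0.072 (standard error 0.23). EIF3H had 6893, 8642 and 7956 in WT and 6948, 8907 and 8999 in POLDIP2 KO, a log2 fold change of 0.078 (standard error 0.14). The lines overlapped for both subunits, and for EIF3E the POLDIP2 KO line held both the lowest and the highest of the 6 libraries. RAD21 had 11379.9, 9863 and 12271 in WT and 9575, 10628 and 11575 in POLDIP2 KO, a log2 fold change of -0.075 with an interval of -0.37 to 0.22. EXT1 had 15237, 12796 and 11122 in WT and 15364, 10490.0 and 11869 in POLDIP2 KO, a log2 fold change of -0.060 with an interval of -0.49 to 0.37. The intervals of RAD21 and EXT1 leave room for differences in either direction.

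ENY2, a small subunit shared by the SAGA deubiquitinase module and the mRNA export complex TREX-2, had a narrower interval than the other subunits. It had 1854, 1652 and 1850.2 normalised counts in WT and 1883, 1787 and 1879 in POLDIP2 KO, a log2 fold change of 0.053 with an interval of -0.19 to 0.29. EMC2, a subunit of the ER membrane protein complex, had 682, 641 and 623 in WT and 642, 667 and 771 in POLDIP2 KO, a log2 fold change of 0.092. TRPS1, a zinc finger repressor of the GATA type, had 711, 837 and 1044 in WT and 753, 812 and 899.6 in POLDIP2 KO, a log2 fold change of -0.059. In each of the 3 genes the lines overlapped. MED30 of the Mediator complex had 98.2, 155 and 109 in WT and 138, 144 and 142 in POLDIP2 KO, a log2 fold change of 0.26, and UTP23, which acts in ribosomal RNA processing, had a log2 fold change of 0.011. The libraries of UTP23 ranged from 401 to 736 in WT and from 417 to 704 in POLDIP2 KO, with replicate 1 the lowest in both lines. TAF2 of TFIID, the last member before the run, had 17.005, 143 and 137 in WT and 18.5, 146 and 57.6 in POLDIP2 KO, and its interval of -2.75 to 2.02 says little about the difference.

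Among the secreted and signalling genes, ENPP2 was the 1 member that lay lower in every POLDIP2 KO library. ENPP2 encodes autotaxin, the secreted enzyme that makes lysophosphatidic acid, and had 7755, 6853 and 6826 normalised counts in WT and 4624, 3694 and 6545 in POLDIP2 KO. The means were 7145 ± 529 and 4954 ± 1454 (± SD, n = 3 libraries each), which gives a log2 difference of -0.57 (standard error 0.20), the lowest of the 37 members. Most of the difference lay in POLDIP2 KO replicates 1 and 2, while replicate 3 was close to WT. TNFRSF11B had the highest log2 fold change of the members, 1.21, at a low level and with an interval of -0.082 to 2.50. It encodes osteoprotegerin, a secreted decoy receptor of the tumour necrosis factor family, and had 17.9, 18.1 and 27.1 in WT and 80.0, 66.8 and 21.8 in POLDIP2 KO. POLDIP2 KO replicates 1 and 2 lay above WT and replicate 3 did not. CCN3, a matricellular protein, had 4094, 3890.0 and 2774 in WT and 4854, 3892 and 4549 in POLDIP2 KO, a log2 fold change of 0.32, with overlap.

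The remaining members before the run also had intervals that include 0. MAL2, a membrane protein of transcytosis in epithelial cells, had 4872, 3962 and 3609.5 normalised counts in WT and 4961, 3279.8 and 3917 in POLDIP2 KO, a log2 fold change of -0.043. SYBU encodes syntabulin, which links cargo to kinesin, and had 253, 224 and 254 in WT and 226, 188 and 177 in POLDIP2 KO, a log2 fold change of -0.31 with an interval of -0.73 to 0.11. SYBU was lower in all 3 same-numbered pairs, and its lines overlapped by a single library, POLDIP2 KO replicate 1. SAMD12 had a log2 fold change of -0.13, NUDCD1 of -0.069 and EBAG9 of -0.053. CSMD3, which encodes a large transmembrane protein, was at a low level, with 25.5, 52.2 and 32.4 in WT and 27.1, 54.5 and 31.8 in POLDIP2 KO, a log2 fold change of 0.040 with an interval of -0.98 to 1.06.

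**Figure D3:**
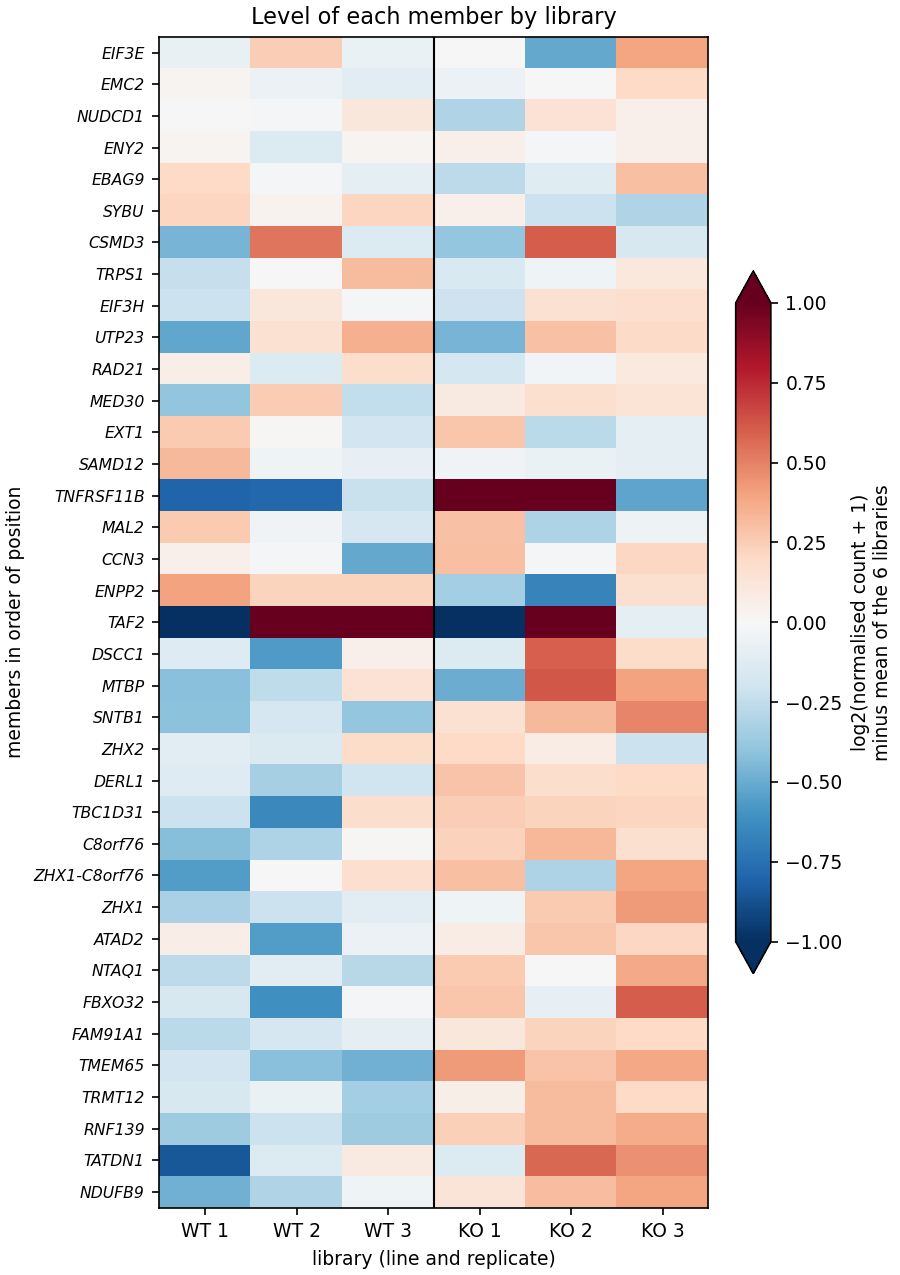
Level of the 37 members (rows, in order of position from EIF3E at the top) in each library (columns), as log2(normalised count + 1) minus the mean of the 6 libraries; colours stop at 1 in either direction. The lower rows of the map are mostly blue in WT and red in POLDIP2 KO, and the upper rows show no such division by line.

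Each library was then summarised by the median, over the members, of its log2 value minus the gene's mean over the 6 libraries. For the 37 members this was -0.19, -0.11 and -0.061 in WT and 0.056, 0.16 and 0.20 in POLDIP2 KO. In the fourth block it was -0.26, -0.22 and -0.095 in WT and 0.13, 0.28 and 0.38 in POLDIP2 KO. In the first block it was -0.038, 0.018 and 0.0088 in WT and -0.18, -0.014 and 0.14 in POLDIP2 KO. The libraries of the lines thus did not overlap in the fourth block, and they did in the first. Over all genes tested the same median lay between 0.0021 and 0.0054 in every library.

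Over all genes tested, values centred within each line correlated at 0.31, 0.14 and 0.13 between libraries of the same replicate number. WT replicate 3 correlated slightly more with POLDIP2 KO replicate 2 (r = 0.15) than with POLDIP2 KO replicate 3. Over the members, replicate 3 had r = -0.11 (n = 37 genes). The ratio was also taken within each pair. The median log2 ratio of the 18 genes of the run was 0.45 for replicate 1, 0.53 for replicate 2 and 0.38 for replicate 3, and 16, 17 and 17 of the 18 were higher in POLDIP2 KO. The 19 members before the run had medians of 0.022, 0.00074 and -0.014. In the fourth block all 9 genes were higher in each of the 3 pairs. Of the 37 members, 20 kept 1 direction in all 3 pairs, beside 32.7% of all genes, and of these SYBU, SAMD12 and ENPP2 were lower and the others higher. Among the genes of the run, the pairs differed most in DSCC1, with log2 ratios of -0.0046, 1.16 and 0.13, and in ZHX1-C8orf76, with 0.86, -0.30 and 0.23. In DERL1 they were close, at 0.42, 0.51 and 0.41.

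At the ends of the interval, the values just inside and just outside the limits were as follows, with no test. The tested genes before the start, LRP12, OXR1 and ANGPT1, had log2 fold changes of 0.12, -0.11 and 0.40, and the first members EIF3E, EMC2 and NUDCD1 had -0.072, 0.092 and -0.069. The interval of ANGPT1, a low gene, was -0.58 to 1.38. At the other end, the last members RNF139, TATDN1 and NDUFB9 had 0.61, 0.60 and 0.55. Past the limit, ZNF572 had 0.18 with an interval of -0.67 to 1.03, SQLE had -0.48 and WASHC5 had 0.48. SQLE, which encodes squalene epoxidase of cholesterol synthesis, had 6422, 6463 and 5451 normalised counts in WT and 5185, 3599 and 4499 in POLDIP2 KO, and lay lower without overlap between genes that were higher. WASHC5, a subunit of the WASH complex on endosomes, had 1734, 1425 and 1587 in WT and 2127, 2234 and 2253 in POLDIP2 KO, without overlap. The next genes, named after their values were seen, were NSMCE2 with 0.44, TRIB1 with 0.56 and LRATD2 with -0.052. The lines did not overlap for NSMCE2, while those of TRIB1 did, with an interval of -0.052 to 1.18. Past the limit, WASHC5 and NSMCE2 were thus higher without overlap, SQLE was lower, ZNF572 and TRIB1 were uncertain, and LRATD2 lay near 0.

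Outside the interval, the genes of chromosome 8 were centred near no difference. Of the 411 other tested genes, 410 remained once genes that the rule leaves out by name were set aside. These 410 had a median log2 fold change of 0.013, and 213 of them were higher in POLDIP2 KO. The median was -0.010 for 160 genes that start under 45 Mb, 0.015 for 160 genes between 45 and 108.0 Mb, and 0.019 for 90 genes after 124.9 Mb. Bins of 5 Mb were taken over all tested genes of the chromosome, with members included and no gene set aside by name. The bin from 120 to 125 Mb had a median of 0.44 over 20 genes, 19 of them higher. Most genes of that bin are members of the run, so its value restates the difference seen there. The next highest bin, from 75 to 80 Mb, had 0.39 over 8 genes, with 7 higher.

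To see how the members compare with the genes they work with, 16 lists of partner genes outside the interval were drawn from textbook knowledge, 139 genes in all. These lists too were drawn up with earlier results of this contrast known. Of the 125 partners that reached the filter, 0 passed both thresholds in limma, against 0.170% of all genes, and 49 were higher and 76 lower in POLDIP2 KO. At an unadjusted p value under 0.05 there were 4, all higher, with 3.00% of all genes higher and 3.47% lower. The median log2 fold change of the 125 partners was -0.024, beside -0.00029 for all genes tested. The edgeR quasi-likelihood test called 0 of them with 4 at an unadjusted p value under 0.05, against 6.52% of all genes, and DESeq2 called 1, against 1.70%. The 4 partners with an unadjusted limma p value under 0.05 were STAG2, PLPP1, PLPP3 and TNFRSF11A, named after their values were seen.

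Several members of the run lay above all their tested partners. DERL1 and RNF139 had log2 fold changes of 0.44 and 0.61, while the 9 tested partners of ER-associated degradation ranged from -0.42 in HERPUD1 to 0.095 in VCP, the ATPase that extracts the substrates, with a median of -0.033. DSCC1 stood at 0.43 with an interval of -0.17 to 1.03, and the 6 other subunits of CTF18-RFC ranged from -0.17 to 0.034. TRMT12 stood at 0.38, and the 4 other enzymes of wybutosine synthesis ranged from -0.080 to -0.029. FAM91A1 stood at 0.35, and its partners WDR11, C17orf75 and TBC1D23 at 0.18, -0.16 and -0.17. For these members of the run the value lay above that of every partner. MTBP, at 0.35 with an interval of -0.40 to 1.10, was also above its 5 tested partners in origin firing, which ranged from -0.26 to 0.11. The intervals of DSCC1 and MTBP include 0, and that of TRMT12 starts at 0.0044. The interval of FAM91A1, 0.13 to 0.58, overlaps that of WDR11, -0.072 to 0.43, which was itself higher without overlap between the lines. That of DERL1, 0.21 to 0.68, overlaps that of VCP, -0.19 to 0.38. The place of these members above their partners is therefore uncertain. The differences between members and partners were not tested, because the members were chosen on this contrast.

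Subunits of complexes before the run lay among their partners. EIF3E and EIF3H, at -0.072 and 0.078, fell within the range of the 10 other tested eIF3 subunits, from -0.11 in EIF3C to 0.12 in EIF3L, 0 of which had an unadjusted limma p value under 0.05. EIF3C has a near-identical copy, EIF3CL, and its value is uncertain. RAD21, at -0.075, lay within the 12 partners of cohesin, from -0.24 to 0.51. The upper value is that of STAG2, a subunit of cohesin, with 2306, 2822 and 3029 normalised counts in WT and 3247, 3844 and 4525 in POLDIP2 KO and a limma adjusted p value of 0.531. EMC2 lay within its 8 partners, from -0.18 to 0.13, and EXT1 within its 9 in heparan sulfate synthesis, from -0.26 to 0.24. ENY2 lay within its 8 partners, from -0.28 to 0.18. The 32 partners of MED30 and TAF2 in Mediator and TFIID had a median of -0.021, and the 7 of DEPTOR, around mTOR, of -0.061. Of the run, ZHX1 and ZHX2 stood at 0.43 and 0.041, and their 2 partners had a median of -0.28. NTAQ1, also of the run, stood at 0.43, and its 5 partners had a median of -0.0039. It lay below its partner NTAN1, at 3.56 with an interval of -1.54 to 8.66, and above its other partners.

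Of the receptors and enzymes around the secreted members, TNFRSF11A had the smallest limma p value. It encodes RANK, the receptor whose ligand osteoprotegerin captures, and had 221, 143 and 227 normalised counts in WT and 448, 679.7 and 511 in POLDIP2 KO, without overlap. Its log2 fold change was 1.47 (standard error 0.25), with an adjusted p value of 0.117 in limma, 0.14 in the edgeR quasi-likelihood test and 3.71e-05 in DESeq2. The ligands TNFSF11 and TNFSF10 did not reach a mean of 10. Around ENPP2, the phosphatases PLPP1 and PLPP3, which degrade lysophosphatidic acid, stood at 0.38 and 0.78 on the log2 scale (adjusted p 0.577 and 0.698 by limma). LPAR2 was the 1 listed receptor of lysophosphatidic acid past the filter, with a log2 fold change of -0.35. ENPP2 itself, at -0.57, lay below all 4 tested partners of its list.

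The members span a wide range of levels. Levels between genes were compared as WT normalised counts per kb of the canonical transcript of GENCODE release 44. EIF3E had the highest, 4583 per kb, followed by NDUFB9 with 3425, RAD21 with 3052, ENPP2 with 2315 and FBXO32 with 2244. The lowest were CSMD3 with 2.81, TNFRSF11B with 10.1 and TAF2 with 19.7 per kb. These 3 lie before the run, whose lowest gene was ZHX1-C8orf76 with 59.1 per kb, and high genes lie in both stretches. Across the 37 members, Spearman's rho of the log2 fold change was 0.71 with the position of the gene start, -0.11 with the mean count, -0.14 with the transcript length and 0.12 with its GC content. These are descriptions over genes that share the same 6 libraries. The limits of the interval were set with this contrast in view, so the value for position is partly built in by that choice. It cannot be weighed against the other 3 values. The 15 members on the plus strand had a median of 0.32 and the 22 on the minus strand of 0.17, with 13 higher in each.

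Several neighbours start head to head, with at most 1000 bases between the starts or a short overlap. There are 6 such pairs among the members: EIF3E with EMC2, NUDCD1 with ENY2, EIF3H with UTP23, DERL1 with TBC1D31, ATAD2 with NTAQ1 and TATDN1 with NDUFB9. In the 3 pairs before the run the log2 fold changes lay between -0.072 and 0.092, and in the 3 pairs of the run between 0.37 and 0.60. Gene bodies of the members overlap on opposite strands in 6 cases, the longest being MTBP with SNTB1 over 6389 bases and UTP23 with RAD21 over 3530 bases. The library kit keeps the strand, but the strand setting of the quantification is not given in the sources used here.

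The 17 genes of the interval with a mean above 0 and under 10 were not tested in the main comparison, and none is read as differing. An alternative without the filter fitted them, and its values for them were not read. They are 12 protein-coding genes and 5 pseudogenes, with at most 12 recovered reads in any library, and 10 of them had 3 reads or fewer in every library. The 12 coding genes are DEPTOR, MTSS1, TMEM74, AARD, KCNV1, COLEC10, PKHD1L1, KLHL38, ANXA13, FER1L6, FAM83A and SLC30A8. DEPTOR, an inhibitor of mTOR, had 12, 10 and 4 recovered reads in WT and 5 in each POLDIP2 KO library. With so few reads, no difference in these genes was read. A further 36 genes of the interval had 0 reads in every library, which allows up to 2.44 to 3.69 normalised counts per library, the worth of 3 reads. These limits cover counting error only.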

How the data were processed

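RNA of 3 WT and 3 POLDIP2 KO libraries, prepared with a stranded mRNA kit, was analysed from 1 table. The authors quantified reads with Salmon 1.8, summed them to genes on GRCh38 with tximport, and deposited the signal of each gene as its count divided by a DESeq2 1.34.0 size factor. The annotation release is not stated. Positions come from GENCODE release 44 on GRCh38, which named 34152 of 37902 genes; of the 14684 tested genes, 885 had no position there. All columns were used (0 left out).

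The main comparison used limma 3.58.1 in R 4.3.3 (lmFit, eBayes with trend) on log2(normalised count + 1) of genes whose mean reached 10, with Benjamini-Hochberg adjustment. Genes were called at an adjusted p under 0.05 with a change over 1.5 times. With 3 libraries a line, the smallest p of an exact permutation test is 0.1. Counts were recovered by dividing each column by its smallest value above 0: 100% of values were whole within 0.001, though the step of 2 columns (WT replicate 2, POLDIP2 KO replicate 3) is too close to 1 to tell. They ranged from 31532797 to 45795509 reads. EdgeR 4.0.16 and DESeq2 1.42.0 were run on them, a choice made after seeing the data. The steps were also run on simulated data with planted changes larger than those of the run, so that check does not bear on changes of the run's size.

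Values centred within each line correlated at 0.31, 0.14 and 0.13 between same-numbered libraries and at -0.26 to 0.15 between others, over all genes tested. Over the 37 members the same-numbered values were 0.73, 0.51 and -0.11 and the others -0.75 to 0.63. In neither set do the numbers mark the closest libraries throughout. The number was used as a block in an alternative. Named genes are the members in lists by role, the 10 lowest and 5 highest members by log2 fold change, the 3 tested genes nearest each end on either side, partners past both thresholds and POLDIP2. The members and lists were chosen with earlier results of these data known. Marker lists for neuronal, leukocyte and endothelial cells were also read: their summed levels were 3084 to 3515 in WT and 3689 to 4913 in POLDIP2 KO (neuronal), 1679.7 to 2190.3 in WT and 1861 to 2139 in POLDIP2 KO (leukocyte) and 35.5 to 199 in WT and 40.7 to 137 in POLDIP2 KO (endothelial) normalised counts (3, 1 and 2 markers past the filter). Tables were made in Python 3.11.15 (pandas 2.3.3, numpy 2.4.6) and plots in matplotlib 3.10.9.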

Additional observations from a re-analysis of the deposited data

How the results depend on the processing

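The median log2 fold change of the 37 members was 0.26. With all libraries it ranged from 0.25 with a pseudocount of 5 to 0.30 with quantile normalisation, and with each library left out from 0.13 (without WT replicate 1) to 0.27. The number of members lower in POLDIP2 KO stayed at 11 with all libraries and ranged from 8 to 12 with a library left out, and that of members without overlap from 15 to 18, since fewer libraries overlap less often. The median of the 18 genes of the run was 0.44 under every alternative with all libraries, and lay between 0.41 and 0.54 with a library left out, with 17 or 18 of them above 0. The run was defined by values above 0 in these same libraries, so this count largely follows from the definition. A change of filter, of eBayes setting or of block in limma cannot move the log2 fold change of a gene. Limma called 0 members in every alternative. On the recovered reads DESeq2 called 3 members and 1 partner, and with the replicate block 4 members and 1 partner, while edgeR called 0 of either; the cause was not tested. Over all genes, 25 were called by limma, 16 with a mean of at least 50, where fewer genes are tested, and 248 and 392 by DESeq2 without and with the replicate block. Limma with the replicate block called 30, and it changed no call of a member or partner. With each library left out, 0 to 10 were called, 0 without WT replicate 2 or 3 or POLDIP2 KO replicate 2 or 3, and 10 without replicate 1 of either line. The log2 fold changes of the 35 named members kept their sign in 603 of 628 refitted values, and 23 of the 35 genes kept it in every alternative, among them 15 of the 16 named genes of the run, the exception being ZHX2. The 628 values include those of the filter, eBayes and limma replicate block alternatives, which repeat the main values, so that part of the agreement was fixed in advance. The standard error was 1.01 in TAF2, where replicate 1 of both lines was low, 0.55 in TNFRSF11B and 0.43 in CSMD3, so their differences are poorly known. No difference was read in the 17 genes under the filter, which had few reads at this depth.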

Other observations

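In some members, replicate 1 or 2 stood apart in both lines. TAF2 had 17.005 normalised counts in WT replicate 1 and 18.5 in POLDIP2 KO replicate 1, against 143 and 137 in the other WT libraries and 146 and 57.6 in the other POLDIP2 KO libraries. UTP23 was also lowest in replicate 1 of both lines, with 401 and 417. TATDN1 was lowest in replicate 1 of both lines, with 521 and 856, and was higher in POLDIP2 KO in all 3 pairs. CSMD3 was highest in replicate 2 of both lines, with 52.2 and 54.5. These genes were named after their values were seen.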
